A study of Mus musculus with 2 samples.

Results

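The genes described here encode subunits of the GABA-A receptor and the transporters that set the chloride gradient it works on. They are the subunit genes Gabra2, Gabra3, Gabra5, Gabrb1 and Gabrb2 and the transporter genes Slc12a2 and Slc12a5, chosen by symbol, and all 7 were found among the 45578 genes of the table. The footprints came from brains of control mice at postnatal day 5, with genotype Smn+/-; SMN2tg/0 (1 mouse Smn allele and a human SMN2 transgene) on a congenic FVB background. This is the Taiwanese line used for spinal muscular atrophy, and both samples carry the same Smn deletion and transgene, so no wild-type and no second condition was available for comparison. RiboLace captures translating ribosomes on beads that carry a puromycin analogue, and the RNA fragments they protect, of 25 to 35 nucleotides, were sequenced. There were 2 biological replicates of this 1 group, and the labels do not say whether animals were pooled.

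GABA-A receptors are rings of subunits around a chloride channel, usually built from alpha, beta and gamma subunits. The alpha subunit sets much of the pharmacology and kinetics, and alpha2, alpha3 and alpha5 are known as forms of the immature forebrain. Slc12a2 encodes NKCC1, which carries chloride into the cell, and Slc12a5 encodes KCC2, the neuronal transporter that carries it out. In rodents the balance of these transporters is known to shift toward KCC2 in the early postnatal weeks, and with it the response to GABA changes from depolarising to inhibitory.

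Summed over genes, replicate 1 held 343552 counts and replicate 2 held 120282, a ratio of 2.86. The 7 genes together held 278 counts, or 0.0809% (95% Wilson interval 0.0720 to 0.0910), and 98 counts, or 0.0815% (0.0669 to 0.0993). These intervals and all those below cover counting error only. All 8 neuronal markers of the fixed list were detected, at mean footprint densities from 56.0 to 2439 CPM per kb of coding sequence, and the liver and muscle genes Alb, Apoa1 and Ckm had 0 counts in both libraries. Acta1, on the same list, had 70 and 22 counts, and it shares sequence with other actins.

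For Slc12a5, 97 fragments were counted in replicate 1 and 36 in replicate 2, the highest counts of the 7 genes in each library. Its footprint density, the count scaled to library size (CPM) and divided by the coding length in kilobases, was 77.3 in replicate 1 (95% exact Poisson interval 62.7 to 94.3) and 94.5 in replicate 2 (66.2 to 131). The mean was 85.9 ± 12.2 CPM per kb (SD, n = 2). Slc12a2 had 27 and 11 counts on a coding sequence of similar length, 3621 nucleotides against 3402. Its density was 20.2 in replicate 1 (13.3 to 29.4) and 27.1 in replicate 2 (13.5 to 48.5), with a mean of 23.7 ± 4.89 CPM per kb (SD, n = 2), the lowest of the 7 genes in both libraries. Per kb of whole transcript, Slc12a2 at 13.1 CPM was not the lowest, since Gabrb1 stood at 4.42.

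Per coding length, the gene for the chloride extruder therefore carried 3.82 times the footprints of the gene for the chloride importer in replicate 1 (95% exact interval 2.47 to 6.10) and 3.48 times in replicate 2 (1.73 to 7.59). Both intervals lay above 1. As a log2 ratio of Slc12a2 over Slc12a5 the values were -1.94 and -1.80, with a mean of -1.87 ± 0.0951 (SD, n = 2). Counting error was wider than the spread between the libraries, so the small SD does not give the precision of the ratio. These are footprint densities over whole brain, in which fewer cells of a type, less RNA per cell and fewer ribosomes per RNA cannot be told apart.

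**Figure D1:**
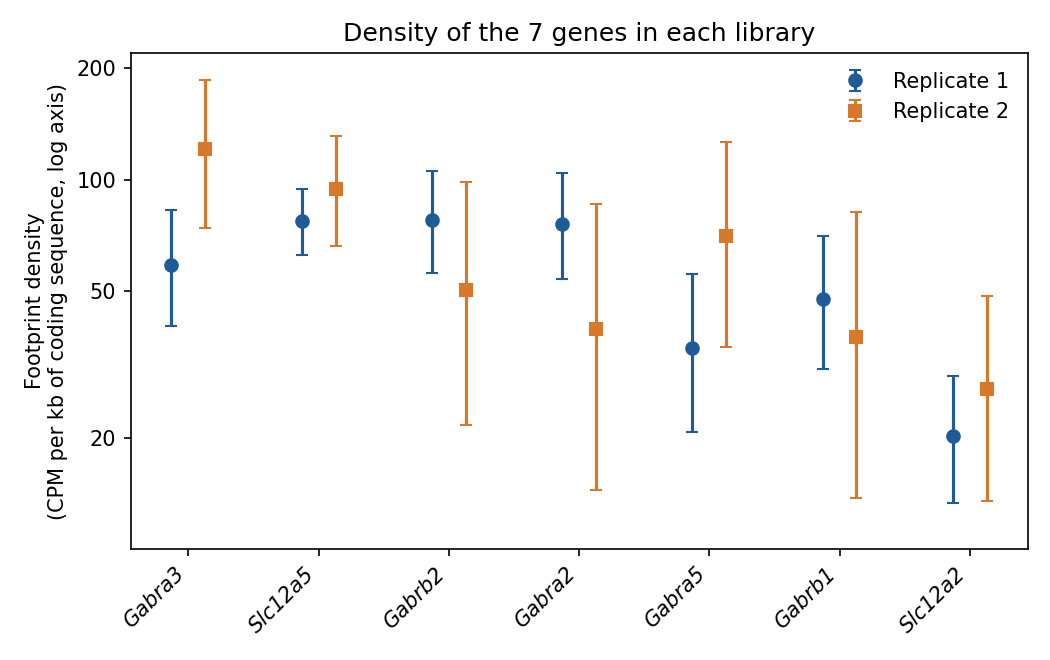
Footprint density of each gene (CPM per kb of coding sequence, log axis) in replicate 1 (circles) and replicate 2 (squares), with 95% exact Poisson intervals as bars. Slc12a2 is lowest in both libraries, at 20.2 and 27.1, and among the 5 receptor subunits the bars of Gabrb2 and Gabra5 do not overlap in replicate 1, while in replicate 2 all 5 overlap. Bars can overlap where the interval of a ratio excludes 1, as for Gabra3 over Gabra2 in replicate 2.

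Slc12a2 is also made in cells other than neurons, among them the choroid plexus and the oligodendrocyte lineage, so the markers of these cells are given beside it. All 7 choroid plexus markers were detected, with 0.122% of gene counts in replicate 1 and 0.136% in replicate 2. Ttr, the transthyretin gene, held 395 and 153 of these counts, while the other 6 markers had between 0 and 8 counts per library. The 7 oligodendrocyte lineage markers were also all detected, with 0.0661% and 0.0682% of counts. Of the other cell types with a list, astrocyte and radial glia markers held 0.326% and 0.312% of counts and endothelial markers 0.0137% and 0.0175%. The part of any of these cells in the Slc12a2 level was not tested.

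Among the other cation-chloride cotransporter genes, Slc12a9 had the highest density, 14.8 in replicate 1 and 22.8 in replicate 2 (15 and 7 counts). The potassium-chloride cotransporters related to KCC2 were lower. Slc12a4 (KCC1) had 8 and 4 counts and Slc12a7 (KCC4) 6 and 0. Slc12a5 exceeded Slc12a4 in density by 11.6 times in replicate 1 (95% exact interval 5.66 to 27.7) and 8.62 times in replicate 2 (3.09 to 33.3). The kidney genes Slc12a1 (NKCC2) and Slc12a3 (NCC) had 0 counts in both libraries, where 3 counts would correspond to a density of 2.48 and 8.18 for Slc12a1. Of the 8 genes of this family considered, 3 passed the filter of a mean of at least 10 counts, namely Slc12a2, Slc12a5 and Slc12a9.

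Kinases that act on these transporters were also detected. Stk39, which encodes SPAK, a kinase that activates NKCC1, had 16 and 7 counts and densities of 25.9 and 37.4. Wnk1 and Wnk2, of the kinase family upstream of SPAK, had 26 and 7 counts and 27 and 9 counts on long coding sequences, with mean densities of 9.32 ± 0.788 and 12.4 ± 0.821 CPM per kb (each SD, n = 2). Oxsr1, which encodes OSR1, the close relative of SPAK, had 9 and 8 counts. They lay on a transcript annotated as a target of nonsense-mediated decay with a coding sequence of 342 nucleotides, so its densities of 71.3 and 209 CPM per kb are not comparable with those of the other kinases. Of the 10 genes in the list of cotransporter kinases, chloride channels and carbonic anhydrases, 5 passed the filter.

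The counting intervals of the alpha subunit genes among the 7 overlapped within each library, although some ratios between these genes had intervals that excluded 1. Gabra3 (alpha3), with 32 and 20 counts, had densities of 58.6 (40.1 to 82.8) and 121 (73.8 to 186). Gabra2 (alpha2) had 38 and 6 counts, or 75.9 (53.7 to 104) and 39.5 (14.5 to 86.0). Gabra5 (alpha5), known for its receptors outside synapses in the hippocampus, had 18 and 11 counts, or 35.0 (20.8 to 55.4) and 70.6 (35.2 to 126). Gabra3 and Gabra5 were thus at higher values in replicate 2 and Gabra2 in replicate 1, with counting intervals that overlapped between the libraries for each gene. The order of the alpha genes consequently differed between the libraries: Gabra2 led in replicate 1 and Gabra3 in replicate 2.

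The beta subunit genes among the 7 both had their higher value in replicate 1. Gabrb2 (beta2) had 41 and 8 counts, or densities of 78.0 (56.0 to 106) and 50.1 (21.6 to 98.8). Gabrb1 (beta1) had 25 and 6 counts, or 47.5 (30.8 to 70.2) and 37.6 (13.8 to 81.8). The ratio of Gabrb2 to Gabrb1 was 1.64 in replicate 1 (95% exact interval 0.974 to 2.81) and 1.33 in replicate 2 (0.406 to 4.66), and neither interval excluded 1.

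Ordered by mean density, the 7 genes ran from Gabra3 at 89.7 ± 43.9 over Slc12a5 at 85.9, Gabrb2 at 64.1 ± 19.7, Gabra2 at 57.7 ± 25.8, Gabra5 at 52.8 ± 25.1 and Gabrb1 at 42.6 ± 7.03 to Slc12a2 at 23.7 CPM per kb (SD, n = 2). Of the 6 pairs of neighbours in this order, none had a ratio whose counting interval excluded 1 in both libraries. Over all 21 pairs of the 7 genes, the interval excluded 1 in 9 pairs in replicate 1, in 7 in replicate 2 and in 3 in both. The 3 pairs were Gabra3 over Slc12a2, Slc12a5 over Slc12a2 and Slc12a5 over Gabrb1. These intervals were not adjusted for the number of pairs.

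**Figure D2:**
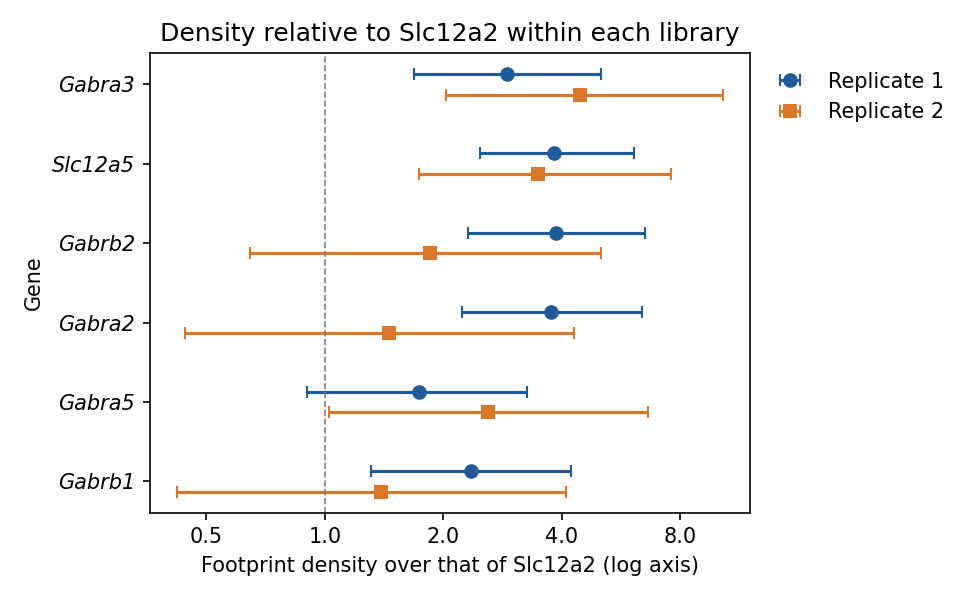
Footprint density of 6 genes divided by that of Slc12a2 in the same library (log axis), with 95% exact counting intervals as bars; the dashed line marks equal density. The bars of both libraries lie above 1 for Slc12a5 and Gabra3, while in replicate 2 those of Gabrb2, Gabra2 and Gabrb1 cross it.

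Among the coding genes past the count filter, the receptor subunits and Slc12a5 lay in the middle of the range of density. Over the 4294 protein-coding genes that passed the filter and had an annotated coding sequence, the median density was 63.0 in replicate 1 and 60.7 in replicate 2. By mean density Gabra3 stood at percentile 61.9 and Slc12a5 at percentile 60.6, Gabrb2 at 51.1, Gabra2 at 47.2, Gabra5 at 43.9 and Gabrb1 at 35.9. Slc12a2 stood at percentile 17.3. The filter is on counts and the rank on density, so a gene passes at a lower density where its coding sequence is long. The percentiles therefore depend on coding length, which was 3621 nucleotides for Slc12a2 and 1356 to 1479 for the subunits. The place of each gene among those of like coding length was not tested.

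Other subunit genes give the setting for these values. Gabra4 (alpha4) had 3 and 1 counts, and Gabra6 (alpha6) had 0 in both libraries. For Gabra6, 3 counts would correspond to densities of 5.97 and 19.7, and the upper limits of its exact Poisson intervals were 7.34 and 24.2. Alpha6 is a subunit of cerebellar granule cells. Of the 7 cerebellar granule lineage markers, 4 passed the filter: Zic1 with 54 and 23 counts, Zic2 with 38 and 21, Neurod1 with 19 and 8 and Cbln1 with 17 and 9. The other markers did not pass, among them Atoh1 with 0 and 1 counts.

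**Figure D3:**
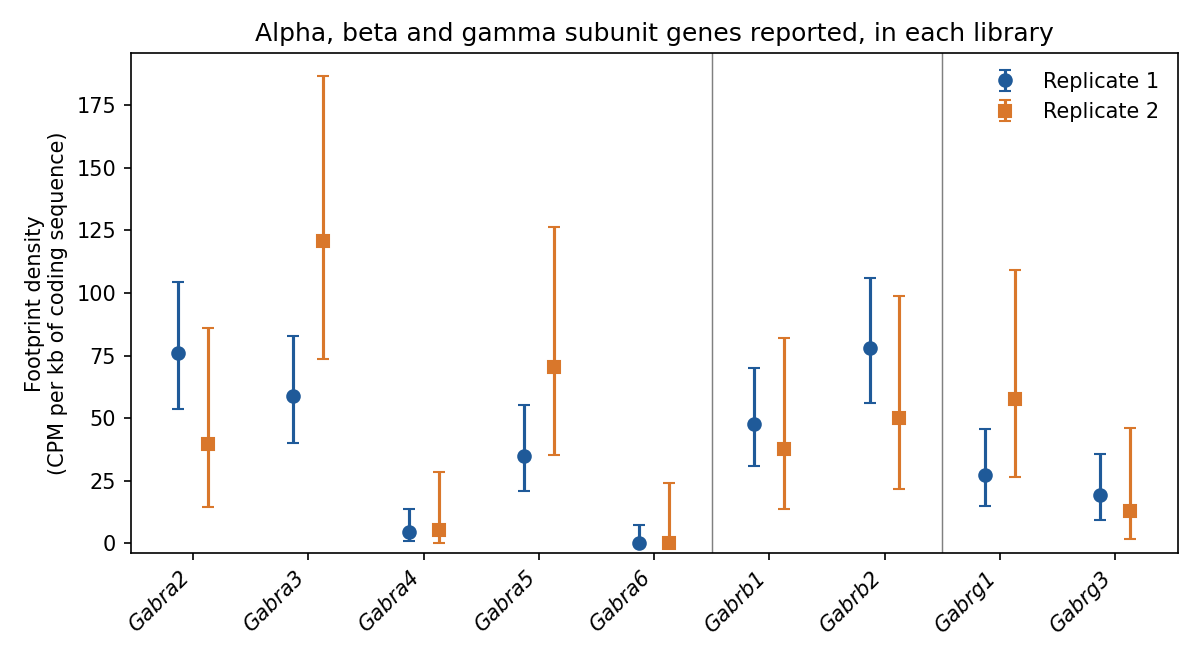
Footprint density (CPM per kb of coding sequence) of 5 alpha, 2 beta and 2 gamma subunit genes in each library, with 95% exact Poisson intervals as bars and grey lines between the classes. Gabra4 and Gabra6 lie near 0 in both libraries, while the bars of Gabra2, Gabra3 and Gabra5 overlap. Bars can overlap where the interval of a ratio excludes 1, as for Gabra2 over Gabra5 in replicate 1.

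Of the gamma genes reported, Gabrg1 had 14 and 9 counts, with a mean density of 42.3 ± 21.5 CPM per kb (SD, n = 2), and Gabrg3 had 10 and 2 counts, with a mean density of 16.0 ± 4.65 CPM per kb (SD, n = 2). Of the 16 subunit genes considered, 6 passed the filter, namely the 5 above and Gabrg1, and Gabra6, Gabrp, Gabrr1, Gabrr2 and Gabrr3 had 0 counts in both libraries. Gabrd, the delta subunit of receptors outside synapses, had 3 and 1 counts, Gabrq (theta) 2 and 2, and Gabre (epsilon) 2 and 0. The counts of Gabrd are those of a processed transcript with no annotated coding sequence, so it has no density.

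Several of the subunit genes lie next to each other in the genome. In the RefSeq annotation of GRCm38.p6, used here for gene order alone, Gabra5 is next to Gabrg3 with no other protein-coding gene between them, Gabrb2 is the neighbour of Gabra6, and Gabra3 is the neighbour of Gabrq. Gabra2 is the neighbour of Gabrg1, and Gabrb1 that of Gabra4. The values of neighbours differed to varying degrees. Gabra2 at 75.9 and 39.5 CPM per kb and its neighbour Gabrg1 at 27.1 and 57.5 changed order between the libraries. Their intervals did not overlap in replicate 1 (53.7 to 104 and 14.8 to 45.5), and the order in replicate 2 rests on 6 and 9 counts. Gabra5 stood at 35.0 and 70.6 beside Gabrg3 at 19.3 and 12.7, and Gabrb1 at 47.5 and 37.6 beside Gabra4 at 4.68 and 5.14. Beside Gabrb2 at 78.0 and 50.1 CPM per kb, Gabra6 had no count, and beside Gabra3 at 58.6 and 121, Gabrq stood at 3.43 and 11.3.

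The annotated transcripts of each gene bear on where on the messenger the counts fell. The counting rule is not given in the sources used here; from the near-equal counts of overlapping isoforms, a fragment was taken to be counted on every transcript that it matched. Slc12a5 has 9 annotated transcripts, and the 3 that hold the whole coding sequence differed little: Slc12a5-007, used above, had 133 counts summed over the libraries, Slc12a5-001 had 124 and Slc12a5-006 had 124. Slc12a5-006 has 157 nucleotides of untranslated sequence, 2131 fewer than Slc12a5-007, and still carried 93.2% of the count. The net 9 counts of difference correspond to 4.22 counts per kb of additional untranslated sequence, against 36.3 per kb of coding sequence on Slc12a5-006. Starts of KCC2 isoforms could not be separated, since the counts on these transcripts are nearly all shared.

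Gabrb2 gave a similar picture. Gabrb2-005, with a coding sequence of 1539 nucleotides and no annotated untranslated sequence, had 47 counts against 49 on Gabrb2-001, which has 2564 nucleotides of it. For Gabrb2 as for Slc12a5, the count thus lay largely on sequence common to the long and the short form.

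Gabra3 differed in the share kept, 78.8% on its short form. Gabra3-002, with 188 nucleotides of untranslated sequence, had 29 and 12 counts, against 32 and 20 on Gabra3-001. The net difference was 3 of 32 counts in replicate 1 and 8 of 20 in replicate 2. These net 11 counts correspond to 5.51 per kb of additional untranslated sequence, where the value was 4.22 for Slc12a5. The coding sequence of Gabra3-002 is also longer, 1602 nucleotides against 1479, which by itself lowers its density. On Gabra3-002 the ratio of replicate 2 to replicate 1 was 1.36, where it was 2.06 on Gabra3-001. On the transcripts with the longest coding sequence Gabra3 stood at 49.1 and 66.9 CPM per kb, with a mean of 58.0 ± 12.6 (SD, n = 2), and came second behind Slc12a5 at 78.3 ± 7.54 (SD, n = 2). Per kb of whole transcript Gabra3-001 also came behind Slc12a5, at 36.2 against 51.3 CPM, and by coding density Gabra3 stood at place 4 of the 7 genes in replicate 1.

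The untranslated part also matters for the choice of length. Gabrb1-001 has a 3' untranslated region of 12228 nucleotides beside 1425 coding nucleotides, and its density per kb of whole transcript was 4.42 CPM, against 42.6 per kb of coding sequence. Gabra2 has 6 annotated transcripts, of which Gabra2-002 and Gabra2-004, annotated as targets of nonsense-mediated decay, carried 40 and 42 counts, against 44 on Gabra2-001, so the counts do not assign the fragments to 1 form. Gabra5 and Slc12a2 have 1 annotated transcript each in the table, so the part of their counts outside the coding sequence is not known.

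**Figure D4:**
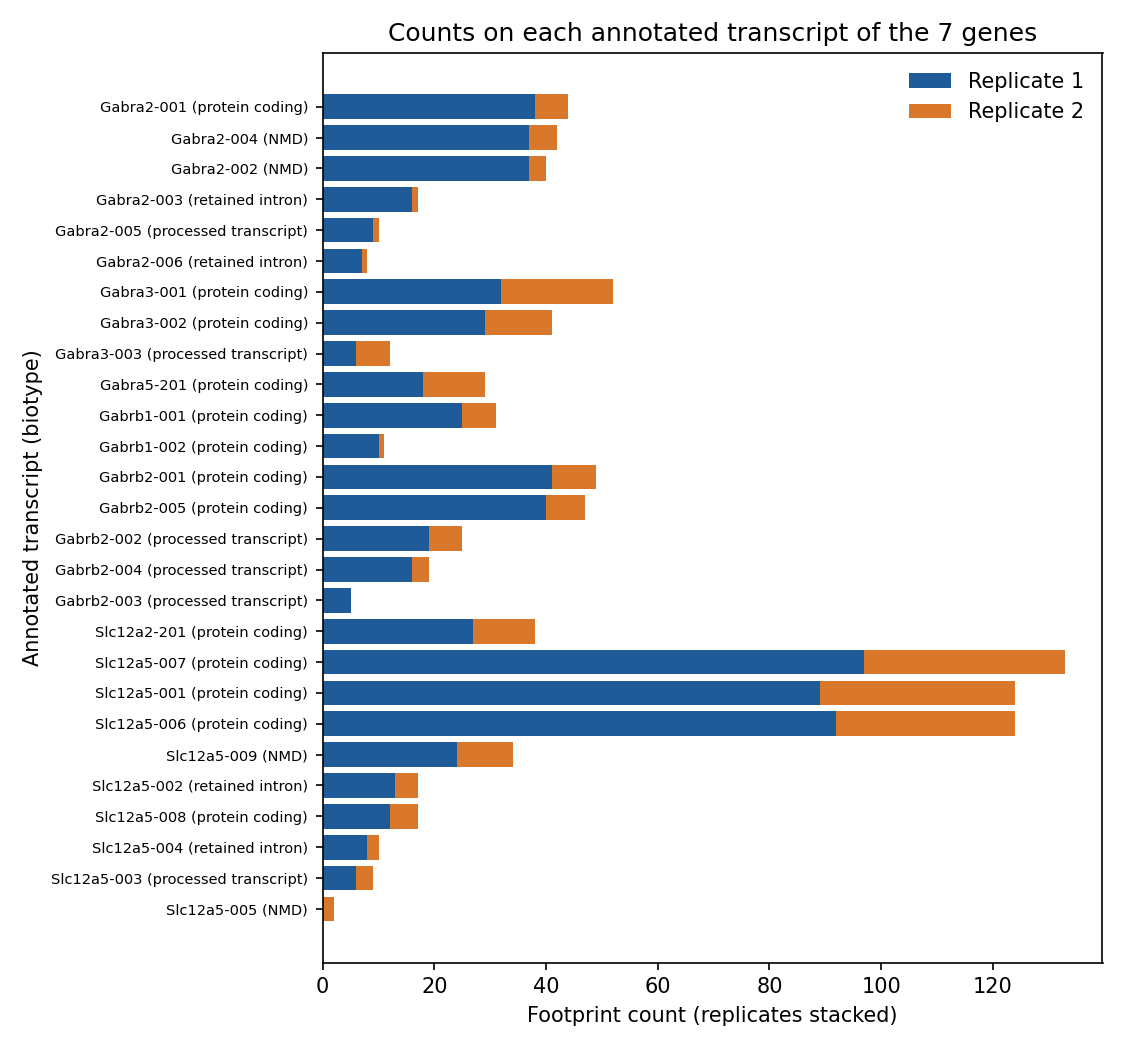
Footprint counts on each annotated transcript of the 7 genes, with replicate 1 and replicate 2 stacked; a fragment is taken to be counted on each transcript that it matches, so bars of a gene do not add up. The 3 full-length Slc12a5 forms carry 124 to 133 counts each, and Gabra3-002 has fewer replicate 2 counts than Gabra3-001.

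The libraries were compared gene by gene with a 2-sided exact binomial test of the counts, adjusted by Benjamini-Hochberg over all 5436 genes that passed the filter. None of the 7 genes passed an adjusted p of 0.05, where 4.14% of all genes tested did and 0.956% of the protein-coding ones. At an unadjusted p under 0.05 there was 1, Gabra3, against 9.6% of all genes and 5.62% of the coding ones. edgeR's exact test with a preset biological coefficient of variation of 0.2 called 0 of the 7, with 0 at an unadjusted p under 0.05. The test compares these libraries, not conditions.

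Gabra3 had a log2 ratio of replicate 2 over replicate 1 of 1.04 (95% exact interval 0.16 to 1.89), with an exact binomial p of 0.0133 and an adjusted p of 0.228, and its adjusted p ranged from 0.493 to 1 over the alternatives run for single genes. Gabra5 had a log2 ratio of 1.01 (-0.22 to 2.17) and Gabra2 one of -0.94 (-2.48 to 0.31). The transporter genes Slc12a2 and Slc12a5 had ratios above 0, at 0.42 (-0.73 to 1.48) and 0.29 (-0.30 to 0.86). Gabrb2 and Gabrb1 had ratios below 0, at -0.64 (-1.94 to 0.47) and -0.34 (-1.91 to 0.98). Over the 7 genes, 4 ratios were above 0 and the median was 0.29, against 0.0041 over all genes tested. The intervals of all genes but Slc12a5 admit a change of more than 2-fold in at least 1 direction.

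**Figure D5:**
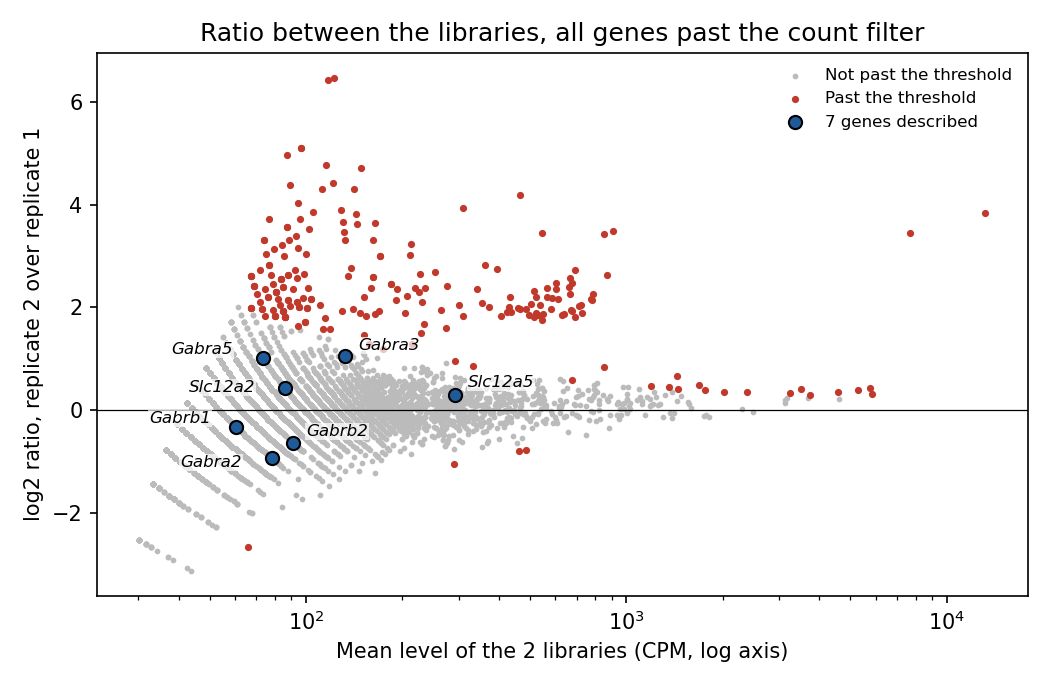
Log2 ratio of replicate 2 over replicate 1 against the mean level in CPM (log axis) for the genes past the count filter with a count in both libraries, with genes past the adjusted threshold in red and the 7 genes in blue. The 7 ratios lie between -0.94 and 1.04, among genes of the same level that did not pass the threshold.

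Footprints of genes for the inhibitory postsynaptic scaffold and for receptor trafficking were counted alongside. Gphn, which encodes the scaffold gephyrin, had 38 and 14 counts and a mean density of 49.3 ± 6.75 CPM per kb (SD, n = 2), inside the range of the 5 subunits. Nlgn2, the adhesion molecule of inhibitory synapses, stood at 62.0 ± 22.3 CPM per kb (SD, n = 2). Lhfpl4, a partner of the receptor at synapses, had 32 and 5 counts. Of the 11 genes considered in this list, 10 passed the filter and 0 were called between the libraries by the exact binomial test, with 1 at an unadjusted p under 0.05, near the 4.14% and 9.6% of all genes tested. Their median log2 ratio was -0.05, against 0.0041 over all genes.

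Of the 6 genes of GABA synthesis and transport considered, Slc6a11, Slc32a1, Gad1 and Abat had a mean density above that of Gabra3. Slc6a11 (GAT3, of astrocytes) stood at 276 ± 44.9 CPM per kb, Slc32a1, the vesicular GABA transporter, at 139 ± 12.4, Gad1 at 108 ± 10.5 and Gad2 at 70.6 ± 13.6 (each SD, n = 2). Of these 6 genes, 5 passed the filter and 0 were called by the exact binomial test, with 0 at an unadjusted p under 0.05. With 5 genes, these counts are near the same shares of all genes tested (4.14% and 9.6%). The list had a median log2 ratio of -0.17, against 0.0041 over all genes.

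Across the 2 libraries, the genes with density values nearest to those of Slc12a2 were Tro, Ppp1r21 and Vps51, at distances of 0.0394 to 0.0482 on the log2 scale, and those nearest to Slc12a5 were Ado, Nxph4 and Blmh, at 0.0284 to 0.0513, among 4286 coding genes with a count in both libraries. With 2 points per gene this likeness describes a level, not a pattern.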

How the data were processed

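Ribosome-protected fragments were measured by RiboLace in 2 samples of 1 group. The authors deposited 1 table of whole-number counts per transcript and replicate, not normalised, with transcript, coding and untranslated lengths as other columns. The submitters' processing notes name Trimmomatic 0.36, Bowtie2 2.2.6, SAMtools and GRCm38.p4. The counting tool and the annotation release are not given in the sources used here.

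A gene was represented by the transcript with the highest summed count, the longer in a tie. The table summed to 729027 and 225075 counts and the genes to 343552 and 120282. CPM used TMM effective library sizes (edgeR 4.0.16), set on genes whose mean count reached 10, the filter for testing. A single count then equals 2.71 CPM in replicate 1 and 8.93 CPM in replicate 2. Densities divide CPM by coding length. Density intervals are exact Poisson, ratio intervals exact Clopper-Pearson and share intervals Wilson, all at 95%. For Slc12a1 and Gabra6, with 0 counts, the density of 3 counts is given for scale. The labels name no molecular identifiers, so PCR copies may be counted as separate fragments, and intervals cover counting error only. With 1 group and no contrast, no quasi-likelihood test was possible, and a 2-sided exact binomial test with Benjamini-Hochberg adjustment over all genes tested compared the libraries. The script was tested on simulated data.

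The 7 genes and all lists (105 genes, all matched by symbol) were chosen with earlier results of these data known. Named genes were the 7, listed genes with at least 10 counts in sum or 0 in both libraries, and the 3 coding genes nearest in density to each transporter. Listed genes with fewer counts (Gabra4, Gabrd, Gabrq, Gabre, Slc12a7, Atoh1) were named after their values were seen. Some listed genes, and the shares of subunit classes that need them, are not reported here.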

Additional observations from a re-analysis of the deposited data

How the results depend on the processing

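No paired analysis was possible because both samples belong to the same group. The preset coefficient of variation for single genes was chosen after seeing the data; the other alternatives below were planned. The 7 genes had 0 calls in each of the 6 alternatives run, although a minimum mean count of 50 left only Slc12a5 to test. The 28 log2 ratios of single genes under 4 alternatives kept their sign and stayed short of the threshold. The preset coefficient of variation cannot change a ratio, and library totals or coding genes alone shift all 7 by the same amount. The longest coding sequence changed the transcript of Gabra3, Gabrb2 and Slc12a5 alone, so the kept signs were largely fixed by these settings. The count of all genes called, 225, became 75 with a minimum mean count of 50, where 764 genes are tested, 131 with the preset coefficient of variation and 22 among protein-coding genes alone. Library totals in place of TMM moved the median log2 ratio of all genes from 0.0041 to -0.20. The log2 ratio of Slc12a2 over Slc12a5, -1.87, was -1.97 per whole transcript length, -1.74 on the longest coding sequence and -3.70 with isoforms summed, where Slc12a5 sums 9 transcripts that largely share sequence and Slc12a2 has 1; it ran from -1.94 to -1.80 with 1 replicate left out. Of the 28 densities of single genes under alternatives, 6 moved by more than the SD of the replicates. All 6 were per whole transcript length, where Gabrb1 and not Slc12a2 was lowest. With 1 replicate left out a density could not move so far, because the mean of 2 values then shifts by less than their SD. The planned shares of the alpha and beta subunits are not reported here. Depth limits all comparisons between the subunits, whose counts in replicate 2 were 6 to 20.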
